A study of Mus musculus with 13 samples.

Results

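The RNAs described here were the C/D box, H/ACA box and Cajal body small RNAs of the mouse melanoma line YUMM1.7. They were chosen by name: every line of the deposited gene count table whose Ensembl identifier carried a GENCODE M21 (GRCm38) symbol beginning with Snord, Snora or Scarna and a number. The rule used no measured value and took 150 of the 54532 genes in the table, of which 99 were Snord (C/D box), 42 were Snora (H/ACA box) and 9 were Scarna (Cajal body). Of these, 67 had 10 or more counts summed over the 12 libraries used, namely 41 Snord, 18 Snora and 8 Scarna.

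Small nucleolar RNAs guide the chemical modification of ribosomal and spliceosomal RNA by base pairing with their targets. C/D box RNAs direct 2'-O-methylation by fibrillarin, and H/ACA box RNAs direct pseudouridylation by dyskerin, while a few members of either kind help to cut the ribosomal RNA precursor instead. Small Cajal body RNAs carry the boxes of one kind or of both, are held in Cajal bodies and guide modification of spliceosomal RNAs; most RNAs of the 3 classes are released from introns of host genes, and all of them fold back on themselves into short stems.

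YUMM1.7 is a melanoma cell line grown in culture, here wild type in every library. Cells received DMSO, the ADAR1 inhibitor compound ADAR1i-124, the DNA methyltransferase inhibitor 5-AZA-CdR or both agents, and from each treatment total RNA, a J2 immunoprecipitate and a Z22 immunoprecipitate were sequenced. J2 is an antibody to double-stranded RNA and Z22 an antibody to left-handed Z-form nucleic acid. A single precipitate with control IgG was sequenced too, and the treatment of its cells is not stated. The labels give no dose or time. RNA sequencing of these cells is described with ADAR1i-124 at 10 µM for 12 h and 5-AZA-CdR at 1 µM for 72 h, and the combination as 5-AZA-CdR first, then ADAR1i-124 for a further 12 h at 10 µM or, as another dosage, 1 µM. Which of these doses each precipitate or combination library received is not given in the sources used here. Before precipitation the RNA had been digested with RNase I, which cuts single-stranded RNA, and with DNase. Each combination of fraction and treatment was 1 library, so no treatment difference below had a replicate, and the intervals given with counts cover counting error only.

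Of the 13 libraries, total RNA of cells given both agents was left out: 22.6% of its counts lay on genes annotated as antisense, against 0.106% to 0.176% in the other 12, and it held 22 counts for all 150 RNAs among 1245894 counts. The 12 libraries used held 8167960 to 34571822 counts each. A single noncoding gene, Gm42418, took 0.0299% to 0.334% of the counts in total RNA, 15.8% to 18.9% in J2, 10.6% to 34.9% in Z22 and 14.2% in IgG, and counts per 1000000 library counts (CPM) of the other genes are lowered accordingly in the precipitates. Among the melanocyte lineage markers, Mitf was at 9.68 to 33.1 CPM, Sox10, Pmel, Mlana and Dct were each at or below 0.625 CPM, and Tyr and Tyrp1 had 0 counts. Of 6 leukocyte markers, Cd68 was at 6.46 to 75.4 CPM and the other 5 were each at or below 2.43 CPM, with the highest values of Cd68, Lyz2 and Ptprc in total RNA of 5-AZA-CdR cells.

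The sequences of 8 of the RNAs that held most of the counts, or that differed most between fractions, are given because they show the boxes that define each class. They are the GENCODE M21 transcripts on GRCm38, written 5′ to 3′ as DNA letters. Capitals mark a C box (TGATGA within the first 20 bases), a D box (CTGA within the last 15 bases), an ACA within the last 6 bases, or, in the H/ACA type Cajal body RNA, the first TGAG, the core of the CAB box that keeps such RNAs in Cajal bodies. Snord17 lay at chr2:144265979-144266216 on the minus strand in an intron of Snx5, Snord118 at chr11:69073427-69073561 on the plus strand with no host gene, and Snord15a at chr7:99482785-99482932 on the minus strand in an intron of Rps3. Snora73b lay at chr4:132352322-132352526 on the minus strand in an intron of Rcc1, Snora23 at chr7:110046364-110046547 on the plus strand in an intron of Ipo7, and Snora31 at chr14:75847905-75848034 on the plus strand in an intron of Tpt1. Scarna13 lay at chr12:105031075-105031349 on the minus strand within Snhg10, and Scarna9 at chr9:15326264-15326333 on the minus strand in an intron of Cep295.
Snord17: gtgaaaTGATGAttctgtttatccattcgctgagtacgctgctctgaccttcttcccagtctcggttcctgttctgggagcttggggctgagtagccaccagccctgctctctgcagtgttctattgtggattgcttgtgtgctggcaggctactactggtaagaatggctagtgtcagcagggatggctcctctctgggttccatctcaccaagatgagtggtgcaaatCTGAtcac
Snord118: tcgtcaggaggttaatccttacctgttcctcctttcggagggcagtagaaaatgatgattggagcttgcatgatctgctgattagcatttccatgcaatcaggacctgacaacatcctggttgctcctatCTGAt
Snord15a: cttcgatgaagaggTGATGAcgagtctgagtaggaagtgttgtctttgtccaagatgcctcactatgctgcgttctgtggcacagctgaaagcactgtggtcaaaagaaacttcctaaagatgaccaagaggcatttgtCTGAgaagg
Snora73b: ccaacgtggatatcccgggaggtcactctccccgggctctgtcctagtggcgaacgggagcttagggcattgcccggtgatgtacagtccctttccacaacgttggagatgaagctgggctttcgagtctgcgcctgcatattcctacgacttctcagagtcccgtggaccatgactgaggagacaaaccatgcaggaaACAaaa
Snora23: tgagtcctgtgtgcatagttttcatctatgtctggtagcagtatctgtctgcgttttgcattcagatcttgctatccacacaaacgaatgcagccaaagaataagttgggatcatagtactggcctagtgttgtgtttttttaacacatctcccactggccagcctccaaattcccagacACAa
Snora31: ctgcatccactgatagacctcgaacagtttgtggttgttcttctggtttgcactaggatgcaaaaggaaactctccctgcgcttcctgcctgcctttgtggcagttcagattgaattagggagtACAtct
Scarna13: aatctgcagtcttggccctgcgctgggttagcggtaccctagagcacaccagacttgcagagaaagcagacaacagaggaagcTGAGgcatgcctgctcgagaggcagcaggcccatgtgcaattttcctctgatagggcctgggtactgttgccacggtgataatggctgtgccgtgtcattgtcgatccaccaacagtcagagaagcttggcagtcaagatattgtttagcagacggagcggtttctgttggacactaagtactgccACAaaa
Scarna9: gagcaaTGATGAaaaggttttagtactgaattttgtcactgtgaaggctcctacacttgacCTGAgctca

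The boxes separated the classes as their names imply. Of the 99 Snord transcripts, 70 (70.7%) had the exact C box, 92 (92.9%) the D box and 68 (68.7%) both, whereas 1 of 4426 other short noncoding transcripts of similar length (0.0226%) had both, 0.384% the C box and 4.86% the D box. None of the 42 Snora transcripts had the C box, and 39 (92.9%) had the terminal ACA, which 7.66% of the other short noncoding transcripts and 5 Snord (5.05%) also had. The 9 Scarna were mixed: 4 had both the C and the D box, among them Scarna9, and 4 had the terminal ACA, among them Scarna13. The TGAG core stood anywhere in 8 of 9 Scarna (88.9%), but also in 82.8% of Snord, 45.2% of Snora and 38.2% of the other transcripts, so it did not set Scarna apart from Snord. Snord118, the U8 RNA, had the D box but not these letters of the C box within its first 20 bases, as printed above.

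Which RNAs had counts at all followed their position in the annotation. In all, 57 of the 150 (37 Snord, 20 Snora and 0 Scarna) lay wholly inside an exon of another gene on the same strand, and all 57 had 0 counts in all 12 libraries. For 17 of them that exon belonged to a ribosomal protein gene, for 22 to a gene of long noncoding biotype such as an Snhg gene, Gas5, Dancr or Zfas1, which are well known snoRNA hosts, and for 17 to another protein coding gene. For 1 (Snora43) it belonged to an entry of the same name. For these 57, an RNA that was not made and reads that were not assigned over shared bases cannot be told apart from the table. Of 16 RNAs that lay partly inside such an exon, 10 had 10 or more counts, 5 had 1 to 9 and 1 (Snora15, 77.9% of its length covered) had 0. Scarna13 was one of the 16, with 23.6% of its length shared with Mir3069, and Snora73a, 77.6% covered by Snhg3, had 59 counts. Of 63 RNAs clear of other exons and with 1 exact copy in the genome, 57 had 10 or more counts, 1 had 1 to 9 and 5 had 0: Snora35, which lies in an intron of Htr2c, and Snord55, Snord116l9, Snord116l12 and Snord116l14. The remaining 14 clear of other exons, all of the Snord116l group of the imprinted Prader-Willi region, had more than 1 exact copy in GRCm38 and 0 counts each, so that all 17 Snord116l genes were at 0. More than 1 copy did not always go with 0 counts, since Snora19, partly inside an exon and with 2 copies, had 37. For these 14, a read that maps to several copies and an RNA that is not made cannot be told apart.

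**Figure D1:**
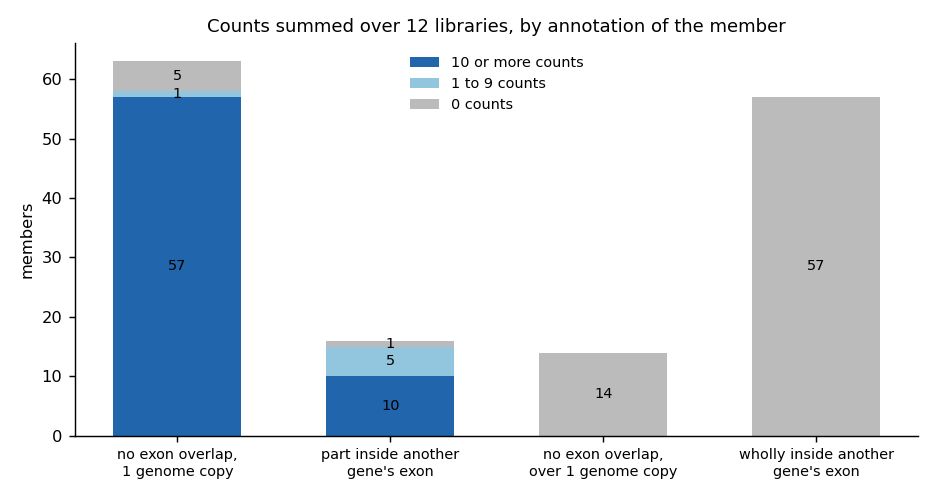
Number of the 150 small RNAs (vertical axis) in each of 4 annotation groups (horizontal axis), with colours for counts summed over 12 libraries. All 57 RNAs wholly inside another gene's exon and all 14 clear of exons with over 1 genome copy had 0 counts, while 57 of the 63 clear, single-copy RNAs had 10 or more.

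Of the fixed list of RNAs that act in ribosomal RNA cleavage or folding, 15 of 17 names were in the table and 4 had 10 or more counts. Snora73b, one of the pair of mouse U17 (E1) RNAs, had 4895 counts, Snord118 (U8) 1104, Snord13 (U13) 140 and Snora73a, the other U17 RNA, 59. The U3 genes Rnu3a, Rnu3b2 and Rnu3b4 had 1 count each, and the other 8 listed RNAs of this group, among them Snord14a, Snord22 and Snora74a, had 0. Snord64 and Snord107, also of the Prader-Willi region, had 0 counts. The Snord14 RNAs, Snord22, Snora74a, Snord64 and Snord107 were among the 57 RNAs wholly inside another gene's exon. Their 0 counts therefore do not show that these RNAs were absent. The telomerase RNA Terc, an H/ACA RNA outside the name rule, had 66 counts in all and 0.114 to 0.588 CPM in a library.

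Counts were held by few RNAs. The 150 RNAs summed to 37946 counts, 14844 on Snord, 9677 on Snora and 13425 on Scarna, and Scarna13 (9243), Snord17 (8312), Snora73b (4895) and Scarna2 (2794) together held 66.5% of them. Snord17 made up 56.0% of the Snord counts, Snora73b 50.6% of the Snora counts, and Scarna13 68.8% of the Scarna counts, and the weight of that 1 RNA in its class sum varied between libraries, from 29.6% to 74.3% for Snord17, from 26.1% to 60.3% for Snora73b and from 32.5% to 85.7% for Scarna13. The 149 of the 150 that are annotated as snoRNA or scaRNA (all but Snord43, annotated as a miRNA) held 34.8% of the 107808 counts on all 1558 genes of snoRNA or scaRNA biotype, the largest of the others being Gm22009, annotated as a scaRNA, with 23794. Long RNAs dominated: the 10 RNAs of over 160 bases held 27301 counts, while Snord transcripts had a median length of 84 bases, Snora of 132.5 and Scarna of 140.

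Per length, the order of mean levels over the 12 libraries (CPM per kb of transcript) began with Snord17 at 214 and Scarna13 at 212, followed by Snora73b at 129. Snord118 was at 48.1, Snora31 at 43.2, Snora23 at 42.8 and Scarna2 at 41.6 CPM per kb, and these 4 lay close together against a spread between libraries of several fold. Snord104 was at 36.6, Scarna9 at 29.8, Scarna17 at 29.0 and Scarna6 at 11.8 CPM per kb. The RNAs near the top of this order thus came from all 3 classes. The order depended on the fractions pooled: over the 3 total RNA libraries alone, Snora73b came first at 136 ± 9.60 CPM per kb, followed by Snord17 at 99.8 ± 27.9 and Scarna13 at 68.1 ± 44.8 (SD, n = 3 libraries), and the ranges of neighbours in this order overlapped: the highest Snord17 value, 128, was above the lowest Snora73b value, 126.

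The summed level of each class differed between fractions in different ways. Snord summed to 66.7, 58.2 and 55.8 CPM in total RNA of DMSO, ADAR1i-124 and 5-AZA-CdR cells, and to 91.7, 99.5, 118 and 89.8 CPM in J2, where the combination comes last. Snora summed to 50.8, 55.0 and 48.5 CPM in the same total RNA libraries and to 45.2, 54.1, 78.9 and 39.6 CPM in J2. Scarna summed to 50.4, 13.5 and 33.1 CPM in total RNA and to 79.4, 121, 172 and 103 CPM in J2. Every J2 library was thus above every total RNA library for the Snord and the Scarna sum, while for Snora the groups overlapped. Neither separation of all libraries held without the leading RNA of the class. Without Snord17 the Snord sum was 25.3 to 43.2 CPM in total RNA and 26.9 to 50.5 CPM in J2, and without Scarna13 the Scarna sum was 6.53 to 18.9 CPM and 17.3 to 58.1 CPM, so that the groups overlapped in both. Within the 3 matched treatments, the log2 ratio of J2 to total RNA averaged 0.77 ± 0.31 for Snord, 0.17 ± 0.47 for Snora and 2.07 ± 1.28 for Scarna (SD, n = 3 pairs). Without the leading RNA of each class it was 0.18 ± 0.81, 0.47 ± 0.14 and 1.22 ± 0.81, an alternative chosen after seeing the data. Over the 3 pairs it then ranged from -0.68 to 0.93 for Snord, from 0.34 to 0.62 for Snora and from 0.33 to 1.92 for Scarna. With Scarna13 included, the Scarna ratio was 0.65 in DMSO, 3.17 with ADAR1i-124 and 2.37 with 5-AZA-CdR, so its spread is wide and the size of the class difference varied with the treatment.

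Z22 was set apart by its DMSO library. Listed again from DMSO through ADAR1i-124 and 5-AZA-CdR to the combination, Z22 sums were 18.4, 94.4, 105 and 118 CPM for Snord, 13.4, 57.1, 50.2 and 52.6 CPM for Snora, and 14.1, 82.7, 109 and 111 CPM for Scarna. The Z22 DMSO library was the lowest Z22 library for every class, and it was also the library with the largest Gm42418 share (34.9%). It held 401 counts for all 150 RNAs, against 2158 to 3435 in the other Z22 libraries. With its 20 most abundant genes taken out of the totals, its Snord sum was 33.6 CPM against up to 165 in Z22, so the gap remained. Of the 21 RNAs that averaged 1 CPM or more, 16 were lower in Z22 DMSO than in all 11 other libraries, beside 53.8% of all 13993 genes. The exceptions were Scarna17, Scarna2, Scarna9, Snord104 and Snord83b. Library handling and treatment cannot be told apart here, since each treatment had 1 Z22 library. The IgG precipitate summed to 137 CPM for Snord, 96.3 for Snora and 114 for Scarna. For Snord and Snora this was above every J2 and Z22 sum, while for Scarna it lay within the J2 range and above every Z22 sum. CPM are shares of a library's own counts, so they do not compare the amounts of RNA precipitated.

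**Figure D2:**
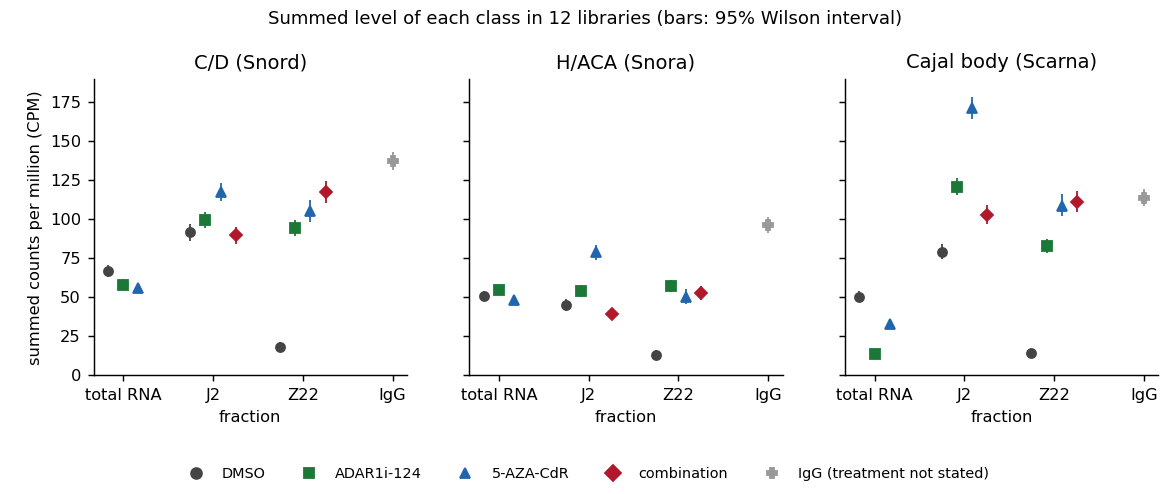
Summed CPM of each class (vertical axis) by fraction (horizontal axis), 1 point per library with its 95% Wilson interval, which covers counting error only. Scarna sums span 13.5 to 50.4 CPM in total RNA and 79.4 to 172 CPM in J2, the Z22 DMSO point is the lowest of Z22 in each panel, and IgG is the highest point for Snord and Snora.

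The Scarna are described singly, since 5 of them held almost all counts of the class. Scarna13, an H/ACA type Cajal body RNA within the noncoding gene Snhg10, was at 31.5, 6.92 and 17.7 CPM in total RNA (DMSO, ADAR1i-124, 5-AZA-CdR) and at 55.6, 104, 113 and 75.2 CPM in J2, with the combination last. In Z22 it was at 4.58, 60.9, 80.3 and 80.2 CPM in the same order, and in IgG at 70.9 CPM. All 4 J2 libraries were above all 3 total RNA libraries, 3 of the 4 Z22 libraries were too, and the IgG value lay within the J2 range. Scarna2, a long RNA of 414 bases with no host gene (chr3:108554338-108554751, minus strand), known as a guide of U2 snRNA modification, was at 8.87, 2.21 and 7.84 CPM in total RNA and at 14.2, 10.2, 47.2 and 20.8 CPM in J2. It was at 2.98, 14.9, 19.6 and 24.1 CPM in Z22 and at 33.7 CPM in IgG, which was above 7 of the 8 antibody libraries.

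Scarna6, from an intron of the autophagy gene Atg16l1, was not higher in J2, with 4.94, 3.01 and 4.37 CPM in total RNA against 2.54, 2.08, 4.36 and 2.04 CPM in J2. It was at 0.687, 2.46, 2.69 and 2.30 CPM in Z22 and at 6.13 CPM in IgG, its highest library. Scarna17, with no host gene, was at 1.47, 0.397 and 1.33 CPM in total RNA, at 2.79, 3.13, 3.46 and 2.89 CPM in J2, at 2.18, 2.39, 3.92 and 2.30 CPM in Z22 and at 1.24 CPM in IgG. It was the only RNA of the 21 whose 8 antibody libraries were all above IgG, a pattern that 14% of all genes also had. It rests on 19 counts in IgG and on 19 to 46 in each J2 or Z22 library. Scarna9, a C/D type RNA from an intron of the centrosomal gene Cep295, was at 2.64, 0.454 and 1.39 CPM in total RNA, at 3.45, 1.46, 2.78 and 1.53 CPM in J2, at 3.67, 1.84, 2.20 and 2.08 CPM in Z22 and at 1.57 CPM in IgG, and its groups overlapped. The other Scarna were low, with 29 counts in all for Scarna8, 25 for Scarna3a, 21 for Scarna3b and 1 for Scarna10. The last 3 shared 46.4%, 89.9% and 87.1% of their length with exons of other genes.

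**Figure D3:**
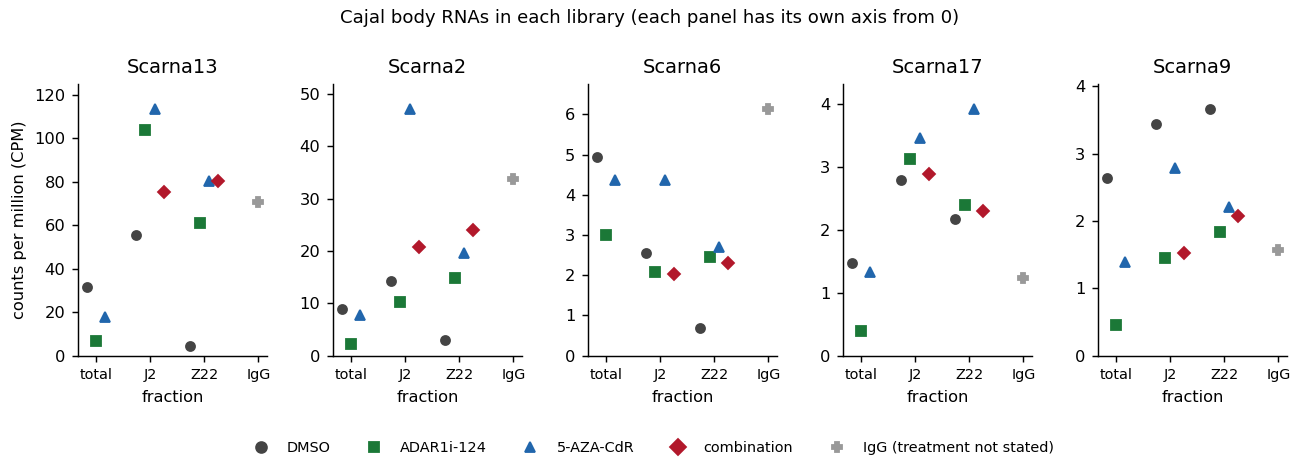
CPM (vertical axis, from 0 and separate for each panel) of the 5 most abundant Cajal body RNAs by fraction (horizontal axis), 1 point per library. The ADAR1i-124 point is the lowest total RNA point in all 5 panels, and Scarna13, Scarna2 and Scarna17 have every J2 point above every total RNA point.

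Among C/D RNAs, Snord17 was at 23.5, 17.3 and 30.5 CPM in total RNA and at 64.8, 49.0, 69.6 and 61.5 CPM in J2. It was at 9.17, 54.0, 67.6 and 87.5 CPM in Z22 and at 77.3 CPM in IgG. Its J2 libraries were all above its total RNA libraries, without overlap. Snord15a, from an intron of the ribosomal protein gene Rps3, showed the same order, with 2.29, 0.795 and 2.20 CPM in total RNA and 4.02, 5.35, 9.48 and 3.65 CPM in J2. Snord118, which is needed for maturation of the large subunit ribosomal RNAs, was at 7.11, 4.37 and 2.08 CPM in total RNA, at 5.42, 6.11, 10.2 and 5.35 CPM in J2 and at 17.2 CPM in IgG, and total RNA and J2 overlapped.

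Among H/ACA RNAs, Snora73b was at 29.7, 25.8 and 28.1 CPM in total RNA and at 18.6, 14.1, 47.6 and 17.5 CPM in J2. It was at 6.76, 23.1, 21.7 and 27.1 CPM in Z22 and at 56.7 CPM in IgG. Apart from the 5-AZA-CdR library, its J2 values were below all of its total RNA values, in contrast with Snord17 and Scarna13. Snora23 was at 3.94, 6.64 and 6.42 CPM in total RNA and at 10.1, 8.61, 10.9 and 6.46 CPM in J2, where the lowest J2 value fell between total RNA values. Snora31 was at 2.82, 6.41 and 4.11 CPM in total RNA, at 5.58, 9.72, 7.75 and 6.88 CPM in J2 and at 3.52 CPM in IgG, a low IgG value beside those of the other abundant RNAs. Snora73b and Snora23 each have an antisense gene over the same bases, Gm17300 and 1600010M07Rik, which had 6 and 8 counts in all over the 12 libraries.

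The comparison of J2 with total RNA asked which RNAs were more abundant after precipitation of double-stranded RNA. edgeR's quasi-likelihood test, with the 3 treatments as blocks and Benjamini-Hochberg adjustment over 14142 genes, called 0 of the 23 small RNAs that averaged 1 CPM or more in these libraries. The test called 0.0212% of all genes, and 7 of the 23 had an unadjusted p under 0.05, against 20.4% of all genes. DESeq2 with the same design called 4 of the 23, all higher in J2 (Scarna13, Scarna2, Snord15a and Snord17), beside 7.38% of all genes called in either direction and 1.18% called higher. In edgeR the log2 fold change was 2.47 ± 0.61 (SE) for Scarna13 (adjusted p = 0.167), 1.87 ± 0.51 for Snord15a (adjusted p = 0.170), 1.83 ± 0.45 for Scarna2 (adjusted p = 0.167), 1.68 ± 0.56 for Scarna17 (adjusted p = 0.196) and 1.38 ± 0.24 for Snord17 (adjusted p = 0.153). At the other end stood Snord49b at -0.69 ± 0.57, Scarna6 at -0.49 ± 0.41, Snora57 at -0.32 ± 0.52, Snord53 at -0.29 ± 0.43 and Snora73b at -0.27 ± 0.39 (adjusted p from 0.503 to 0.734). The median over the 23 RNAs was 0.41, with 16 above 0, beside -0.37 over all genes. With TMM factors, DESeq2 size factors or totals without the 20 most abundant genes, the medians were 0.70, 0.76 and 0.78 beside -0.08, -0.02 and 0.00 over all genes, Snora73b moved to 0.03, 0.08 and 0.11, and Snora57 and Snord53 lay within 0.08 of 0, while Scarna6 (-0.19, -0.14 and -0.11) stayed below 0. The median also depended on which RNAs and libraries entered. It was 0.03 over 63 RNAs with 10 or more summed counts, with 32 above 0, and -0.0026 over 73 RNAs without a filter, with 36 above 0, beside -0.35 and -0.32 over all genes. It was 0.74 without the DMSO pair (18 of 26 above 0), 0.80 without the ADAR1i-124 pair (15 of 20) and 0.04 without the 5-AZA-CdR pair (13 of 24), beside -0.36, -0.40 and -0.36. Without the DMSO pair, edgeR called the same 4 RNAs as DESeq2, with Scarna13 at 3.27 ± 0.35 (edgeR adjusted p = 0.0105). That fit called 4 of 26 RNAs (15.4%) beside 12.3% of all 14209 genes, or, in the direction of the 4, 2.19% called higher.

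The 5 RNAs at the top of that list were also the ones without overlap: 5 of the 21 RNAs averaging 1 CPM or more (Scarna13, Scarna2, Scarna17, Snord15a and Snord17) had all 4 J2 libraries above all 3 total RNA libraries, beside 2.54% of all genes. By class these were 3 of 5 Scarna, 2 of 8 Snord and 0 of 8 Snora. With edgeR TMM factors, DESeq2 size factors or totals without the 20 most abundant genes the count was 8 in each case, with Snora23, Snora31 and Snord83b added, beside 5.4%, 7.28% and 8.01% of all genes. None of the 21 RNAs had all J2 libraries below total RNA, beside 19.8% of all genes, and none did under the 3 other scalings, where 9.1%, 6.3% and 5.69% of all genes did. Other short RNA kinds differed among themselves: the median log2 ratio of mean J2 to mean total RNA was 1.19 for 5 Scarna, 0.25 for Snora and 0.07 for Snord, beside 0.24 for 32 snRNA genes, 0.75 for 7 mitochondrial tRNA genes, -0.01 for 26 miRNA genes, -0.0022 for 33 other snoRNA and scaRNA genes, -0.22 for 22 genes of type misc_RNA and -0.35 for all genes. For mean Z22 against mean total RNA it was 1.03 for Scarna, 0.08 for Snora and -0.30 for Snord, beside -0.21 for 26 snRNA genes, -0.74 for 6 mitochondrial tRNA genes and -0.48 for all genes.

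**Figure D4:**
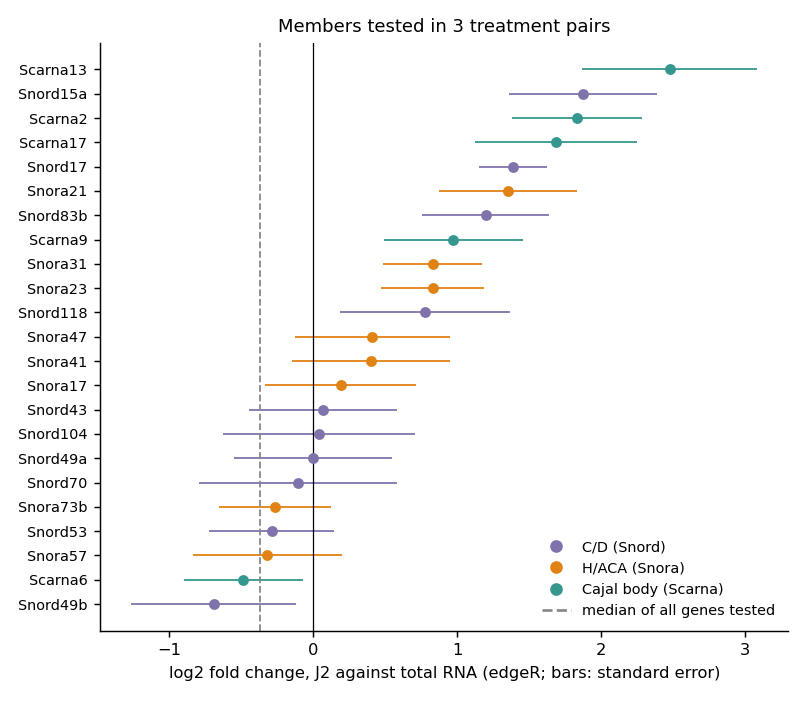
edgeR log2 fold change of J2 against total RNA (horizontal axis) with its standard error for the 23 RNAs tested (vertical axis), coloured by class, over 3 treatment pairs. Scarna13 at 2.47 lies farthest right and Snord49b at -0.69 farthest left, and the dashed line marks the median of all genes at -0.37.

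For Z22 against total RNA, edgeR called 0 of 23 RNAs, 0 of them at an unadjusted p under 0.05, and DESeq2 called 0. Of all 14025 genes, edgeR called 0.0285%, 11.3% had an unadjusted p under 0.05, and DESeq2 called 1.13%. The order resembled that for J2, which shares the total RNA libraries. Scarna17 stood first at a log2 fold change of 1.53 ± 0.68 (SE), before Scarna13 at 1.25 ± 1.30, Scarna9 at 1.0 ± 0.64, Scarna2 at 0.93 ± 0.93 and Snord83b at 0.85 ± 0.68. The lowest were Snord49b at -1.73 ± 0.89, Scarna6 at -1.18 ± 0.72, Snora41 at -1.0 ± 0.97, Snord53 at -0.96 ± 0.82 and Snora73b at -0.86 ± 0.58. The large errors contain the gap between the Z22 DMSO library and the rest. Without the DMSO pair Scarna13 was at 2.65 ± 0.36 (edgeR adjusted p = 0.0334) and was the only one of 22 called, beside 0.663% of all 14323 genes. The median over the 23 RNAs was -0.13 beside -0.58 over all genes. It was 0.29 with TMM factors, 0.34 with DESeq2 size factors and 0.24 without the 20 most abundant genes, beside -0.09, -0.03 and -0.17 over all genes, and 0.61 without the DMSO pair, -0.35 without the ADAR1i-124 pair and -0.54 without the 5-AZA-CdR pair, beside -0.26, -0.74 and -0.77. The sign of the median thus depended on the scaling and on the treatments included, while it lay above that of all genes in each of these fits. The gap narrowed with more RNAs, to -0.45 over 63 RNAs with 10 or more summed counts beside -0.54, and to -0.49 over 73 without a filter beside -0.57.

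For Z22 against J2, which asked whether the RNAs differed between the Z-RNA and the double-stranded RNA precipitate, edgeR called 0 of 21 RNAs, 0 had an unadjusted p under 0.05, and DESeq2 called 0. Of all 13898 genes, edgeR called 0%, 11.5% had an unadjusted p under 0.05, and DESeq2 called 1.65%. The point estimate was above 0 for 3 of the 21 (Snora57 at 0.23 ± 0.46, Scarna9 at 0.13 ± 0.35 and Snora17 at 0.01 ± 0.34). The lowest were Snora41 at -1.16 ± 0.54, Scarna13 at -1.06 ± 0.57, Snora21 at -0.72 ± 0.53, Snord15a at -0.68 ± 0.59 and Snord118 at -0.66 ± 0.57. The median was -0.47 beside -0.21 over all genes, and without the DMSO pair it was -0.15 beside -0.01, with 8 of 21 above 0. No tested RNA of the 3 classes was thus shown to differ between the precipitates, with standard errors of 0.33 to 0.64 on the log2 scale.

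Against IgG, the question was whether these RNAs held a larger share of the counts with either antibody than in a control precipitate. The single IgG library allows no test, and shares do not give the amounts of RNA taken up. In J2, the log2 ratio of the class sum to IgG was -0.61 to -0.22 for Snord, -1.28 to -0.29 for Snora and -0.52 to 0.59 for Scarna over the 4 libraries. In Z22 it was -2.89, -2.84 and -3.01 for Snord, Snora and Scarna in DMSO, and over the other 3 libraries -0.54 to -0.22, -0.94 to -0.75 and -0.46 to -0.03. Scarna in J2 of 5-AZA-CdR cells, at 0.59 with a 95% counting interval of 0.50 to 0.68, and of ADAR1i-124 cells, at 0.09 with an interval of -0.01 to 0.18, were the class sums above IgG. These ratios all share the IgG library. Of the 21 RNAs, 7 (Snord118, Snord15a, Snord49a, Snora73b, Snora21, Snora23 and Scarna6) had all 8 antibody libraries below IgG, beside 18.1% of all genes. Snord15a illustrates the difference between the references, since its J2 libraries were all above total RNA and all below its IgG level of 11.4 CPM. The IgG library itself held the 3 classes above mean total RNA, with a median log2 ratio of 0.62 for Snord, 0.54 for Snora and 0.53 for Scarna, beside 1.12 for snRNA genes, 0.39 for miRNA genes, 0.01 for mitochondrial tRNA genes, -0.43 for misc_RNA genes and -0.43 for protein coding genes.

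ADAR1i-124 in total RNA was the treatment with the clearest difference between the classes. The summed Scarna counts were 237 with ADAR1i-124 and 858 with DMSO, a log2 ratio of -1.91 after scaling to the library totals (95% counting interval -2.11 to -1.70). Snord were at 1026 against 1135 counts (-0.20, interval -0.32 to -0.07) and Snora at 969 against 864 (0.12, interval -0.02 to 0.25). Each of the 5 Scarna averaging 1 CPM or more was lower with ADAR1i-124 than in both other total RNA libraries, also under each of the 3 other scalings. With library totals this order was shared by 4 other RNAs of the 21 (Snora47, Snora73b, Snord15a and Snord17) and by 37% of all genes. With TMM factors Snora47 no longer had it, and with DESeq2 size factors neither Snora47 nor Snora73b had it, while 32.2% and 30.7% of all genes did. On the log2 (CPM + 0.5) scale, Scarna13 was at -2.11 (122 against 536 counts), Scarna2 at -1.79 (39 against 151), Scarna9 at -1.72 (8 against 45) and Scarna6 at -0.63 (53 against 84). Scarna13 was the only one of 29 small RNAs more than 4-fold lower, beside 2.05% of all genes, and 0 were more than 4-fold higher, beside 1.88%.

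Other RNAs stood higher in that library. Past a 2-fold line, 4 of the 29 were higher (7.71% of all genes) and 4 lower (8.7%). The higher ones were Snora57 at 1.43 (54 against 14 counts), Snora62 at 1.15, named after its value was seen, Snord49b at 1.11 and Snora31 at 1.06 (113 against 48). The lower ones were Scarna13, Scarna2, Scarna9 and Snord15a (-1.11, 14 against 39 counts). Snora57, Snora62 and Snord49b were under 1 CPM with DMSO, and Scarna9 and Snord15a were under 1 CPM with ADAR1i-124. Each of these passed the 1 CPM filter only through the library in which it was higher. Snord17 was at -0.44 and Snora73b at -0.20. Other short RNAs varied in this library: the median was -0.59 for 30 snRNA genes, -1.0 for 21 genes of type misc_RNA, -0.72 for 6 mitochondrial tRNA genes and -0.30 for 37 other snoRNA and scaRNA genes, but 0.15 for 22 miRNA genes, 0.07 for 15 Snord and 0.45 for 10 Snora, beside -0.09 for all genes and -0.08 for protein coding genes. The part of these differences between RNA kinds in the Scarna values was not tested.

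The host genes differed less between these libraries than the Scarna, or in another order. Cep295, host of Scarna9, was at 111, 105 and 73.9 CPM in total RNA of DMSO, ADAR1i-124 and 5-AZA-CdR cells, and Atg16l1, host of Scarna6, at 43.2, 48.8 and 60.7 CPM. Snhg10, which contains Scarna13, was at 1.35, 1.02 and 1.59 CPM, a narrower range than the 31.5, 6.92 and 17.7 CPM of Scarna13. The Snhg10 values rest on 23, 18 and 55 counts, and both RNAs were lowest with ADAR1i-124. Snx5, host of Snord17, was at 180, 212 and 111 CPM while Snord17 was at 23.5, 17.3 and 30.5 CPM, and Rcc1, host of Snora73b, was at 59.6, 81.7 and 26.1 CPM while Snora73b was at 29.7, 25.8 and 28.1 CPM. For both pairs the host was highest, and the small RNA lowest, with ADAR1i-124.

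With 5-AZA-CdR, total RNA and J2 differed in direction. In total RNA the log2 ratio to DMSO of the class sums was -0.61 for Scarna (interval -0.73 to -0.48), -0.26 for Snord (-0.36 to -0.15) and -0.07 for Snora (-0.18 to 0.05), and 20 of 25 RNAs (80%) were lower, beside 47% of all genes, with 0 past 4-fold beside 7.74% of all genes. Scarna13 was at -0.81, Snora73b at -0.08 and Snord17 at 0.37 on the log2 (CPM + 0.5) scale. Snord118 was at -1.56, with 72 against 121 counts in a library with more reads. In J2 the class sums were higher than in J2 of DMSO cells, by 1.11 (interval 1.0 to 1.22) for Scarna, 0.80 (0.65 to 0.95) for Snora and 0.36 (0.25 to 0.47) for Snord. Scarna2 was at 1.70, Snora73b at 1.33 and Scarna13 at 1.02, whereas Snora23 was at 0.11 and Snord17 at 0.10, and 0 of 22 RNAs were past 4-fold beside 3.99% of all genes. Without the leading RNA of each class, chosen after seeing the data, all J2 sums were still higher with 5-AZA-CdR than with DMSO. They were 58.1 against 23.8 CPM for Scarna, 48.1 against 26.9 for Snord and 31.3 against 26.6 for Snora, whose difference was then the smallest.

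In J2 of ADAR1i-124 cells the Scarna sum was 0.61 above DMSO (interval 0.49 to 0.72), the Snora sum 0.26 and the Snord sum 0.12. Among the abundant RNAs Scarna13 was at 0.89, Snora73b at -0.39, Snord17 at -0.40 and Scarna2 at -0.46. The class sums depended on the leading RNAs, an alternative chosen after seeing the data. Without Scarna13 the Scarna sum was lower with ADAR1i-124, at 17.3 CPM against 23.8 with DMSO. Without Snora73b the Snora sum was 40.0 against 26.6 CPM, and without Snord17 the Snord sum was 50.5 against 26.9 CPM. Counted by RNA, 16 of 22 (72.7%) were higher than with DMSO beside 50% of all genes, among them 8 of 9 Snord (median 1.11 beside 0.00074 over all genes, and 5 past 2-fold beside 18.2%), 6 of 8 Snora and 2 of 5 Scarna, with Snord17 as the 1 Snord of these 9 that was lower. None, 0 of 22, were past 4-fold beside 3.53% of all genes. With the combination the J2 sums were 0.38 for Scarna, -0.03 for Snord and -0.19 for Snora, with 0 of 20 RNAs past 4-fold beside 3.26% of all genes. For the Scarna sum, 5-AZA-CdR alone thus had a higher J2 value than either ADAR1i-124 or the combination. All of these ratios share the DMSO library of their fraction.

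In Z22 every treatment was far above the low DMSO library. The sums were 2.36, 2.51 and 2.67 above DMSO for Snord (ADAR1i-124, 5-AZA-CdR and combination), 2.09, 1.90 and 1.97 for Snora and 2.55, 2.95 and 2.98 for Scarna, while the median of all genes was itself at 0.81, 1.06 and 0.82. RNAs more than 4-fold higher numbered 8 of 18, 7 of 19 and 6 of 15, beside 13.2%, 20% and 14.2% of all genes. The 8 with ADAR1i-124 included Snord118, Snord15a, Snord43, Snora21 and Snora23, which had 2 to 7 counts in Z22 DMSO. These were under 1 CPM there and passed the 1 CPM filter only through the treated library. Of the 150 RNAs, 10 had 10 or more counts in Z22 DMSO, so these numbers are no measure of a change in the RNAs. Scarna13 was at 3.59 to 3.99, Snord17 at 2.50 to 3.19 and Snora73b at 1.61 to 1.93. All 3 values of each RNA rest on the single Z22 DMSO library, in which Scarna13 had 40 counts, Snord17 80 and Snora73b 59.

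**Figure D5:**
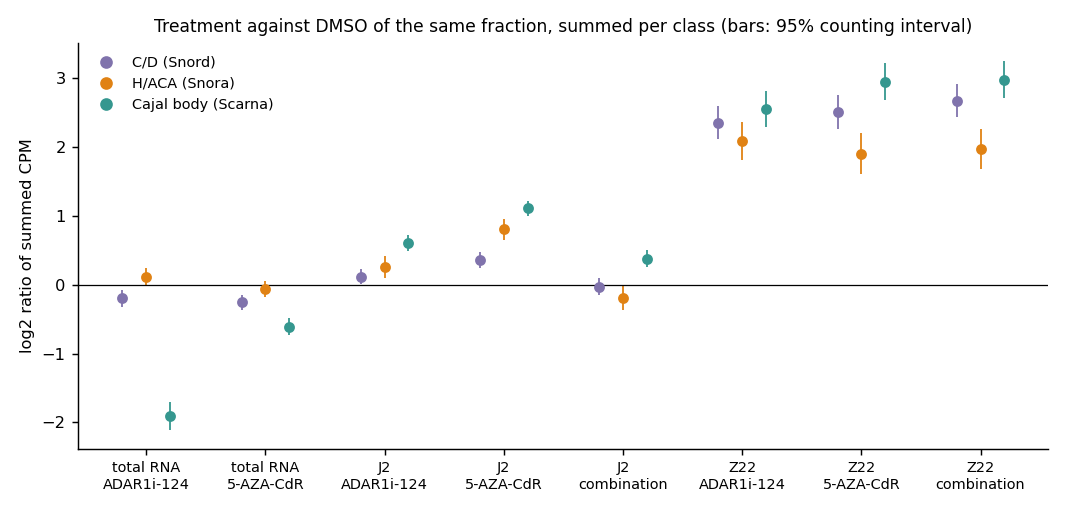
Log2 ratio of summed CPM of each treatment to DMSO of the same fraction (vertical axis) for the 3 classes, with 95% counting intervals, by library (horizontal axis). The Scarna point of total RNA with ADAR1i-124 (-1.91) lies below the other points, and all Z22 points lie between 1.90 and 2.98.

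The proteins that carry these RNAs were read in the same total RNA libraries. With 5-AZA-CdR, all 5 C/D core proteins were lower, 4 past 2-fold (median -1.07), with Nop58 at -1.58, Nop56 at -1.40, the methyltransferase Fbl at -1.07 and Snu13 at -1.02. All 4 H/ACA core proteins were lower and past 2-fold (median -1.39), with the pseudouridine synthase Dkc1 at -2.12, Nop10 at -1.49, Gar1 at -1.30 and Nhp2 at -1.10. Of 12 assembly factors 12 were lower, 5 past 2-fold (median -0.77), beside 47% of all genes lower and 8.96% more than 2-fold lower. In the same 5-AZA-CdR library the leukocyte marker Cd68 had 2607 counts against 141 with DMSO (75.4 and 8.29 CPM; 343 counts, or 19.5 CPM, with ADAR1i-124), Lyz2 84 against 0 and Ptprc 42 against 0, and the 6 leukocyte markers summed to 8.52 to 79.3 CPM over the total RNA libraries. Cd3e was at 0 counts in total RNA. In J2 Cd68 was instead highest with DMSO, at 59.6 CPM against 6.46 to 18.4 CPM in the other 3 libraries. The part of other cell types in the total RNA and J2 values was not tested. The 3 Cajal body proteins were at a median of -0.31, with 0 past 2-fold. With ADAR1i-124, 5 of 5 C/D core proteins were higher and 3 of 4 H/ACA core proteins lower, beside 44% of all genes higher and 56% lower, with 0 past 2-fold in either list. Of the 3 Cajal body proteins 1, Smn1 at 1.11, was past 2-fold higher, beside 7.71% of all genes. The Snord and Snora sums in total RNA of 5-AZA-CdR cells, at -0.26 and -0.07, were thus nearer to 0 than the messages of their core proteins. For Snord this depended on Snord17, without which the sum was 25.3 CPM against 43.2 with DMSO. The median over 13 Snord, -0.45, was farther from 0 than the least changed C/D core protein, at -0.39. edgeR called 0 genes of these lists between fractions.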

How the data were processed

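The authors deposited raw gene counts for 13 libraries, with mm10 named as the build in the submitters' processing notes. The study's methods name snakePipes (its mRNA-seq and noncoding RNA pipelines) and STAR. The program that counted genes and its strand setting are not given in the sources used here. Antisense genes held 0.106% to 0.176% of counts in the 12 libraries. Symbols, positions and transcripts came from GENCODE M21 (GRCm38), which held 54495 of the 54532 genes in the table. The 150 RNAs and the gene lists were chosen with earlier results of these data known. CPM were counts over the library total. Exact genome copies were counted on the primary chromosomes, on both strands. Fractions were compared with edgeR 4.0.16 (glmQLFit and glmQLFTest; R 4.3.3) for genes averaging 1 CPM or more in the libraries compared, library totals as sizes, treatment as a block and an adjusted p threshold of 0.05. Standard errors were derived from the fold change and the F statistic. The fits were tested on simulated counts with known changes. DESeq2 1.42.0 was an alternative. The blocks use 1 library per fraction and treatment, so p-values measure the spread of the fraction difference between treatments, and nothing states that the libraries came from separate cultures. Treatments and IgG had no test: log2 differences used a pseudocount of 0.5 CPM, and class sums none. Intervals are 95% (Wilson for shares) and cover counting error only. A count of 0 allows up to 3 counts, or 0.0868 to 0.367 CPM in a library. Named RNAs were the 5 of highest mean CPM in each class, the 5 highest and 5 lowest of each fraction comparison, every Scarna with 10 or more counts and, for treatments, the 3 largest changes either way among RNAs of at least 10 CPM. Members of the fixed lists were given as counts with at most 4 named. RNAs named outside this rule because they make up a count of few were chosen after their values were seen. Alternatives were TMM and DESeq2 size factors, totals without the 20 most abundant genes, other filters, pseudocounts and fold lines, no treatment block, and leaving out each treatment in turn.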

Additional observations from a re-analysis of the deposited data

Results flagged for a closer look

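In groups of 4 libraries, 4 of 48 held a value far from the other 3 by Dixon's ratio, where chance gives about 1 in 20. Snora73b was at 47.6 CPM and Snord118 at 10.2 CPM in J2 of 5-AZA-CdR cells, each above the other J2 libraries. The summed Snora were at 13.4 CPM in Z22 of DMSO cells, below the other Z22 libraries. Scarna17 was at 3.92 CPM in Z22 of 5-AZA-CdR cells, above the other Z22 libraries.

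The treatment difference of a class sum had opposite signs in different fractions, which was not tested, since each value is 1 library against 1. With ADAR1i-124, the log2 ratio to DMSO of the Snord sum was -0.20 in total RNA, 0.12 in J2 and 2.36 in Z22. The Scarna sum was at -1.91, 0.61 and 2.55 in the same order. Its opposite signs in total RNA and J2 rested on Scarna13. Without Scarna13 the sum was lower with ADAR1i-124 in total RNA (6.53 against 18.9 CPM) and also in J2 (17.3 against 23.8 CPM). With 5-AZA-CdR, the Snord sum was at -0.26, 0.36 and 2.51, and the Scarna sum at -0.61, 1.11 and 2.95. With the combination, the Snora sum was at -0.19 in J2 and 1.97 in Z22.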

How the results depend on the processing

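Of the fraction tests, J2 against total RNA called 0 small RNAs with every other scaling, without the block and with a minimum of 10 summed counts, but 4 of 23 with DESeq2 (7.38% of all genes), 4 of 73 without a filter on low counts (3.32%) and 0 to 4 when 1 treatment pair was left out (4 of 26, and 12.3% of all genes, without DMSO). Z22 against total RNA called 0 to 1 when 1 pair was left out (1 of 22, and 0.663% of all genes, without DMSO), and Z22 against J2 called 0 in all 11 alternatives. Of all genes, Z22 against J2 called 3.87% without the DMSO pair, 1.65% with DESeq2, 1.2% without a filter and 0% in the other alternatives. The mean log2 ratio of J2 to total RNA for the Snord sum was 0.18 without Snord17 in place of 0.77. RNAs with all J2 libraries above total RNA numbered 8 in place of 5 with each of the 3 other scalings, and those above IgG in all antibody libraries 2 in place of 1 without Z22 DMSO, all 3 chosen after seeing the data. Detected RNAs numbered 17 Snord, 11 Snora and 5 Scarna at 100 counts, and 25 Snord and 5 Scarna at 10 counts in at least 2 libraries. Without the 20 most abundant genes, mean CPM were 140 for Snord, 76.5 for Snora, 166 for Scarna and 383 for all 150 in J2, 183, 129, 152 and 464 in IgG, and 55.9 for Snora in total RNA. Over all genes of snoRNA or scaRNA biotype they were 416 in total RNA, 815 in J2, 576 in Z22 and 801 in IgG. At a 2-fold line, 8 of 29 RNAs were past it for ADAR1i-124 (16.4% of all genes) and 2 of 25 for 5-AZA-CdR (26%) in total RNA. In J2 these were 9 of 22 for ADAR1i-124 (18.2%), 8 of 22 for 5-AZA-CdR (14.6%) and 1 of 20 for the combination (12.1%), and in Z22 15 of 18 for ADAR1i-124 (48%) and 15 of 19 for 5-AZA-CdR (56.2%). The Z22 values share a DMSO library in which 10 of the 150 RNAs had 10 or more counts. Class medians that moved were mostly those of Z22 with ADAR1i-124: Snora at 1.25 with a pseudocount of 2 CPM, 1.21 with TMM factors, 1.07 with DESeq2 size factors, 1.36 without the 20 most abundant genes and 1.29 without a filter, and Snord at 0.57 without a filter. With the combination, Z22 Snord was at 3.24 with a pseudocount of 0.1 CPM and Snora at 0.60 without a filter, and the Snord median of Z22 against IgG was -0.22 without a filter. The cause of these moves was not tested. Of 152 treatment values, 137 stayed within the interval of the main class median or, for counts past a fold line, near the main count. Of 60 IgG values, 59 stayed within the SD of the main values over the libraries of that antibody. The signs of these values were not compared. No paired analysis by replicate number was possible because the labels give no replicate numbers. Of the 150, 33 had 100 or more counts.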
